A study of Homo sapiens with 16 samples.

Results

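The genes described here are the 39 protein-coding genes of the human HOX clusters, chosen by name as HOXA, HOXB, HOXC or HOXD followed by a number in GENCODE 44 placed on GRCh37, out of 20163 protein-coding genes on chromosomes 1 to 22, X and Y. Their starts and clusters were compared with 3 deposited ChIP-Seq peak lists from HEK293T cells, a line derived from human embryonic kidney, of which WT, POLK-/- and DDX23-/- cells gave 1 each, none of them treated. POLK encodes the translesion DNA polymerase κ (Pol κ) and DDX23 a DEAD-box RNA helicase of the spliceosome. The antibody is labelled Polk, whereas the labelled protocol names an anti-FLAG affinity gel and no tag is given for these cells, and in the POLK-/- cells the labelled target is the deleted protein. How many clones each knockout stands for was not given. The WT list held 1468 peaks, the POLK-/- list 2451 and the DDX23-/- list 5945. The depth of the pulldown library, estimated from the deposited peak values, was 2.36 times that of WT for POLK-/- and 3.94 times for DDX23-/-. Genotype and depth therefore cannot be told apart in any count below. The labels name 2 pulldown libraries and 2 controls per genotype, but 1 list per genotype was analysed, so the spread between replicates is not known and the intervals given cover counting only.

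HOX genes encode homeodomain transcription factors that give cells their position along the body axis. They lie in 4 clusters that arose by duplication, and genes of the same number in different clusters, called paralogs, are more alike in sequence than neighbors within a cluster. The order of genes along each cluster follows the order of the body regions in which they act, from low numbers in the hindbrain and neck to high numbers in the trunk, limbs and genitalia. Polycomb proteins keep unused HOX genes silent, and Trithorax and COMPASS proteins maintain the active ones. Many of their promoters lie in CpG islands, and noncoding RNAs such as HOTTIP are transcribed from the same clusters.

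HOXB8 was the only HOX gene with a peak at its start in all 3 lists. HOXB8 is a mid-cluster gene known for its part in patterning the trunk and in myeloid progenitors. Its start lies at position 46692654 of chromosome 17 on the minus strand (GRCh37). The peak covered chr17:46692406-46692743 for WT, chr17:46692415-46692701 for POLK-/- and chr17:46692386-46692944 for DDX23-/-. The summit lay 41 bp past the start in the WT list, and 94 bp past it in both knockout lists, at the same base. All 3 summits were in the 5′ UTR of HOXB8, which itself lies inside the long gene record of HOXB7. The part of the DDX23-/- peak before the start, chr17:46692655-46692944 on the minus strand, is printed 5′ to 3′ because it carries an unusual composition, with runs of at least 12 pyrimidines (C or T) in capitals.
HOXB8: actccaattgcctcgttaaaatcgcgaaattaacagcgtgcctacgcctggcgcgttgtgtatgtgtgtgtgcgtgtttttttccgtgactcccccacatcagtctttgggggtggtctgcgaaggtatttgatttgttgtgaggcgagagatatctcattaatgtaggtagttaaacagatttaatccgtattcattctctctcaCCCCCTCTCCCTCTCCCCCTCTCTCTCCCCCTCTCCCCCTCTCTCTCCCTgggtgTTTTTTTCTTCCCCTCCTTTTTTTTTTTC
The 290 bases held 2 such runs, the longer of 50 bases, and 66.6% of the bases were pyrimidines. Their GC content was 47.9%.

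The deposited fold of the HOXB8 peak, which is the fragment number at the summit over the local background after both were scaled (by 1, 0.736 and 0.660 in the WT, POLK-/- and DDX23-/- lists) and 1 was added to each, was 9.93, 15.9 and 19.7 in these lists. The fold stood above that of 78.1%, 91.8% and 94.5% of the peaks within 1 kb of a protein-coding start in the same lists. Ordered by p, the peak was number 377 of the WT list, 385 of the POLK-/- list and 406 of the DDX23-/- list. The WT peak rested on 27 fragments at the summit (exact Poisson 95% interval 17.8 to 39.3), the POLK-/- peak on 53 (39.7 to 69.3) and the DDX23-/- peak on 118 (97.7 to 141). Scaled to the depth of the WT library these were 27, 22.5 and 29.9 fragments, and both knockout values lay within the WT interval. The plain ratio of fragments to background was 14.8 (9.78 to 21.6) for WT, 25.7 (19.2 to 33.6) for POLK-/- and 25.9 (21.5 to 31.1) for DDX23-/-. The intervals of the POLK-/- and DDX23-/- ratios each overlapped that of WT at its upper end, and the values of the knockouts were close to each other. These intervals take the local backgrounds (1.82 for WT, 2.06 for POLK-/- and 4.55 for DDX23-/-) as exact. They leave out the error of the backgrounds, so their overlap is no test. The plot of the HOXB8 start peak shows that the fragment numbers came together after scaling, while the WT ratio was the lowest of the 3.

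**Figure D1:**
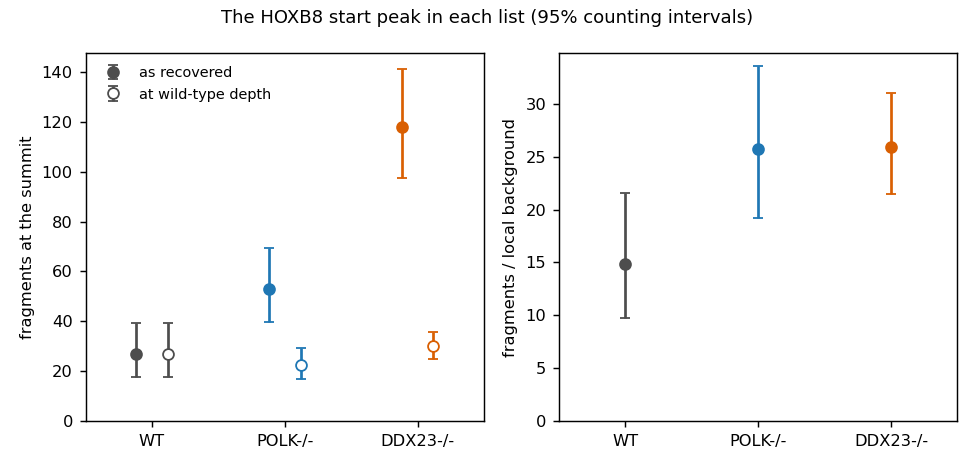
Fragments at the summit of the HOXB8 start peak (left; filled circles as recovered, open circles scaled to the depth of the WT library) and the ratio of fragments to local background (right) in the WT, POLK-/- and DDX23-/- lists. Bars are 95% counting intervals of the fragments, with the background taken as exact. The recovered numbers were 27, 53 and 118, the scaled ones 27, 22.5 and 29.9, and the ratios 14.8, 25.7 and 25.9.

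In the WT list 1 of 39 HOX genes (2.56%, exact binomial 95% interval 0.0649 to 13.5) had a peak within 1 kb of the gene start, which is taken as the 5′ end of the gene record, beside 5.61% of all protein-coding starts. In the POLK-/- list there were 2 genes (5.13%, 0.627 to 17.3), HOXB8 and HOXB13, beside 10.1%. In the DDX23-/- list there were 7 (17.9%, 7.54 to 33.5), among them HOXA6, HOXA13, HOXB8, HOXC9, HOXD8 and HOXD13, beside 24.9%. The HOX share was below that of all starts in each list, and each interval contained the share of all starts. The intervals treat the 39 genes as independent, which neighbors in a cluster are not, and no test was made. Of the 39 genes, 31 had no peak in any list, 7 had one in a single list and 1, HOXB8, had one in all 3. Over all protein-coding genes 74.6% had none, 14.6% had one in 1 list, 6.55% in 2 lists and 4.29% in all 3. The plot of shares by gene list sets these values beside those of related genes.

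**Figure D2:**
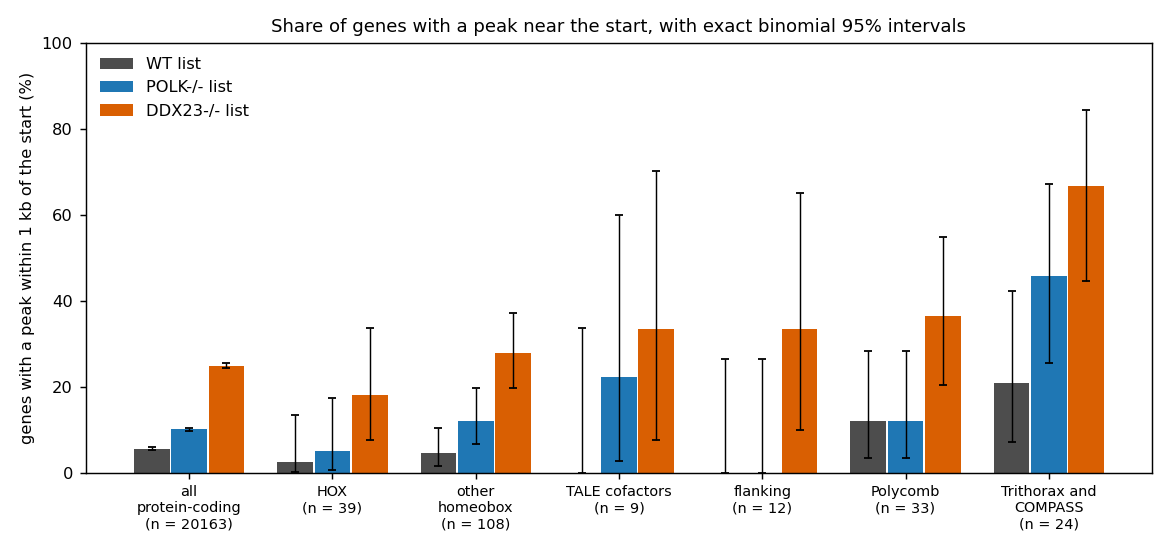
Share of genes with a peak within 1 kb of the gene start, in percent, for all protein-coding genes, the 39 HOX genes and 5 related gene lists, in the WT (grey), POLK-/- (blue) and DDX23-/- (orange) lists. Bars start at 0 and lines are exact binomial 95% intervals. The HOX shares of 2.56%, 5.13% and 17.9% lay below those of all starts, and their intervals contained them.

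HOXB held HOX peaks in all 3 lists, and the other clusters held them in the DDX23-/- list only. The clusters span, from the lowest start to the highest end of their members, chr7:27132612-27239710 (HOXA, 11 genes), chr17:46605888-46806112 (HOXB, 10 genes), chr12:54332615-54449814 (HOXC, 9 genes) and chr2:176957449-177055635 (HOXD, 9 genes). Within these spans the WT list had 1 peak and the POLK-/- list 4, all in HOXB. The DDX23-/- list had 14, of which 4 were in HOXA, 5 in HOXB, 2 in HOXC and 3 in HOXD, and 1 more just past the end of the HOXA span that lay within 1 kb of HOXA13. The clusters held 26.8 DDX23-/- peaks per Mb against 1.92 over the chromosomes, 7.65 against 0.791 for POLK-/- and 1.91 against 0.472 for WT. They are also dense in genes, with 43 protein-coding starts, not all of them members, or 82.3 per Mb against 6.51. For every 100 protein-coding starts the clusters had 32.6 DDX23-/- peaks against 29.5 over the chromosomes, 9.30 POLK-/- peaks against 12.1, and 2.33 WT peaks against 7.25. Per Mb the clusters were thus above the chromosomes in each list, and per start they were below them for WT and POLK-/- and slightly above for DDX23-/-. These rates rest on 1, 4 and 14 peaks for WT, POLK-/- and DDX23-/-, and no difference was tested. The map of the clusters shows each peak at its place with its fold.

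**Figure D3:**
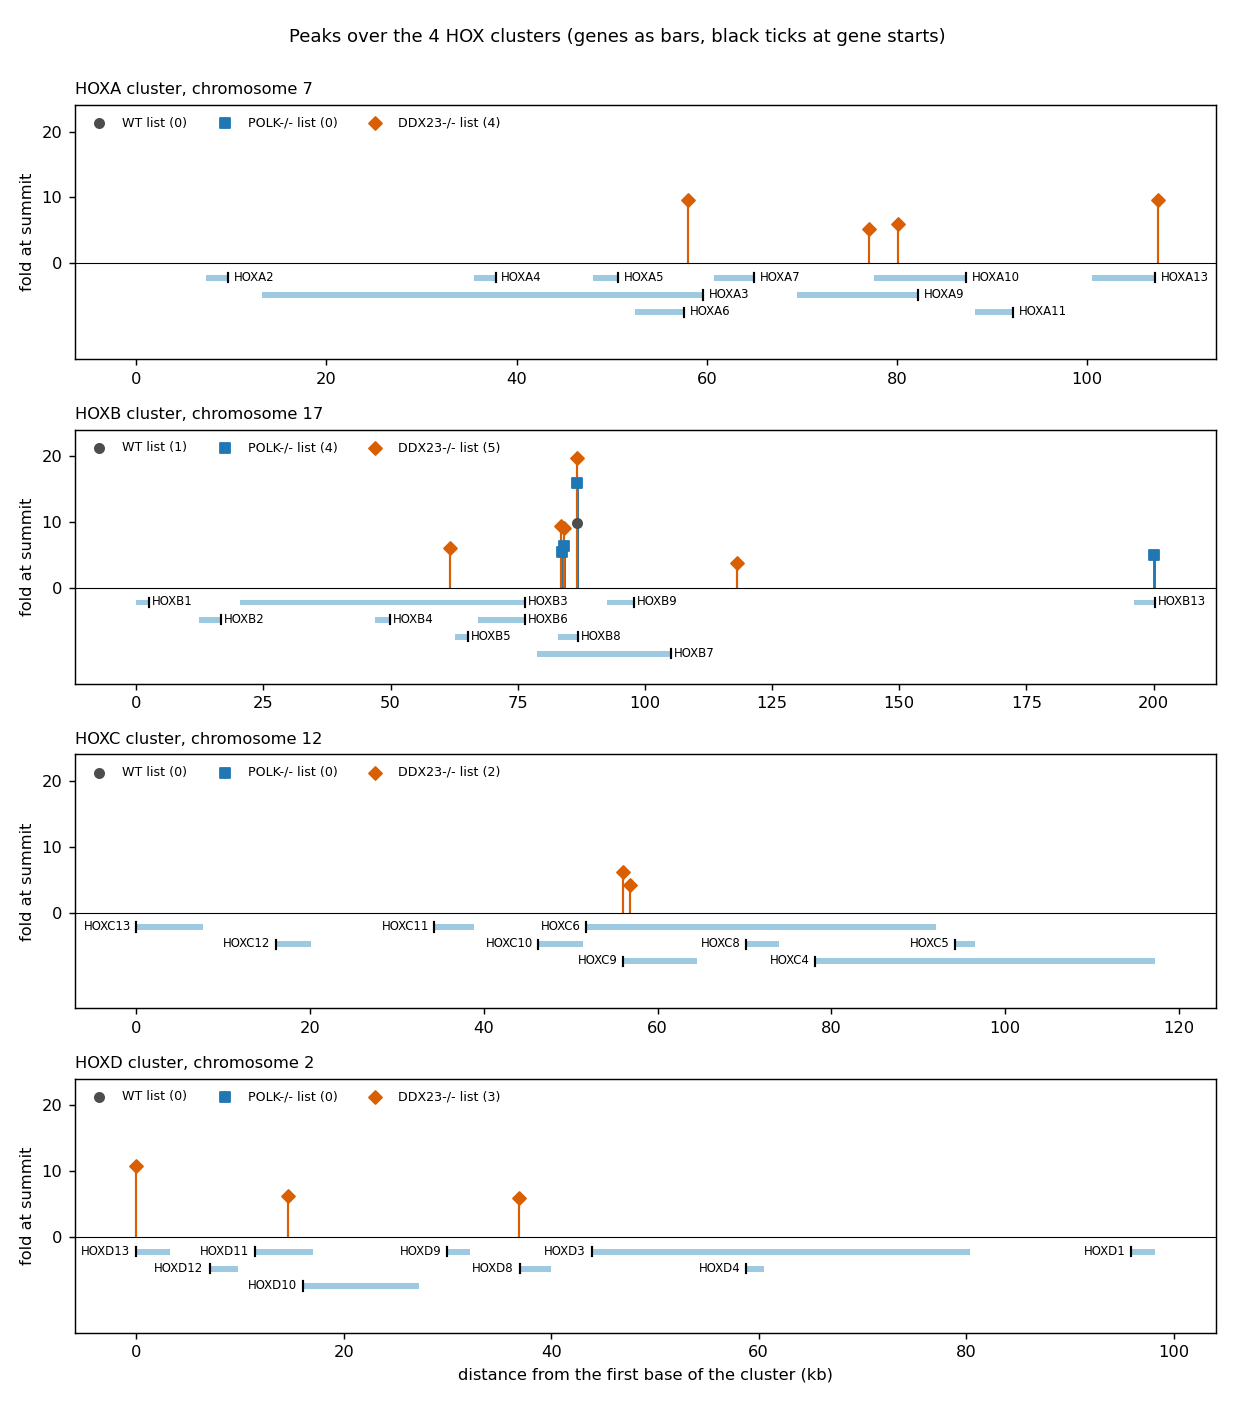
Peaks over the HOXA, HOXB, HOXC and HOXD clusters. The horizontal axis is the distance in kb from the first base of the cluster, stems give the deposited fold at the summit in the WT (grey circles), POLK-/- (blue squares) and DDX23-/- (orange diamonds) lists, and bars below the line are the genes with black ticks at their starts (38 of 39 genes and the peaks near them are drawn). The WT peak and 3 of 4 POLK-/- peaks lie at or near HOXB8, and DDX23-/- peaks occur in all 4 clusters.

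HOXB8 had further peaks past its start, in the knockout lists only. Both lay between 2 and 4 kb downstream, toward HOXB7, a paralog of HOXA7. The nearer one had its summit 2669 bp past the start in the POLK-/- list (fold 6.43, 21 fragments) and 2601 bp past it in the DDX23-/- list (fold 9.03, 39 fragments), in the 3′ UTR of HOXB8. The farther one had its summit 3096 bp past the start in the POLK-/- list (fold 5.49, 21 fragments) and 3191 bp past it in the DDX23-/- list (fold 9.47, 41 fragments), beyond the canonical HOXB8 transcript. Scaled to WT depth, these peaks came to between 8.91 and 10.4 fragments. The fewest recovered for any WT peak were 6, which is no limit for peaks with a higher local background. The edge of the farther peak was 989 bp from the canonical start of HOXB7 in the POLK-/- list and 887 bp from it in the DDX23-/- list. The gene record of HOXB7 begins 22555 bp upstream of that canonical start, so by gene start HOXB7 had no peak.

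HOXB13, the last gene of the HOXB cluster, which is known for its expression in the prostate and distal gut, had a peak only in the POLK-/- list. It covered chr17:46805841-46806061 with its summit 151 bp past the start in the 5′ UTR (fold 4.99, −log10 p 6.98, 14 fragments with an interval of 7.65 to 23.5). At 93.3% of the list ordered by p it was among the weaker POLK-/- peaks. The nearest DDX23-/- peak was 81946 bp from the HOXB13 start. The difference between the lists at HOXB13 was not tested.

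In the HOXA cluster the DDX23-/- list had 5 peaks, of which 4 are described here, and the other lists none. HOXA13 and HOXD13, paralogs known for patterning the digits and the urogenital tract, both had one, as did HOXA6, a gene of the thoracic region, and these 3 were the strongest HOX peaks after HOXB8. The HOXA13 peak, chr7:27239941-27240245, had its summit 356 bp before the HOXA13 start and 10 bp past a transcript start of HOTTIP, a noncoding RNA read in the opposite direction (fold 9.57, 42 fragments). The HOXA6 peak, chr7:27190510-27190818, had its summit 421 bp before the HOXA6 gene start, in introns of HOXA3 and of the antisense gene HOXA-AS3 (fold 9.58, 48 fragments). The canonical HOXA6 start lay farther away, 3117 bp from that peak. The first 300 genomic bases of each peak are printed 5′ to 3′ on the minus strand, the strand of these genes, with CpG in capitals. They show CpG-rich stretches before HOX gene starts beside the pyrimidine-rich one of HOXB8. The HOXA6 stretch is chr7:27190510-27190809 and the HOXA13 stretch chr7:27239941-27240240.
HOXA6: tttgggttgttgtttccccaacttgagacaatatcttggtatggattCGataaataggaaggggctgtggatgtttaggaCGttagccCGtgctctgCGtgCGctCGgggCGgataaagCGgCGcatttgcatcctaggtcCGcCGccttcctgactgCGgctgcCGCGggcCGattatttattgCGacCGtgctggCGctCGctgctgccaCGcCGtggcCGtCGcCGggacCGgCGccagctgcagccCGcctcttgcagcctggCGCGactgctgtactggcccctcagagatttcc
HOXA13: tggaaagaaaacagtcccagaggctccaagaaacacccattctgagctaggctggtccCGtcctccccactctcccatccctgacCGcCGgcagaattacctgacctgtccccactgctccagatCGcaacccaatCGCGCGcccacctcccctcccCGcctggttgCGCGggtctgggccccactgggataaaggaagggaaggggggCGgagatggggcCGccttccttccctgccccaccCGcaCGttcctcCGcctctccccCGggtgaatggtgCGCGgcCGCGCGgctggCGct
The HOXA6 stretch held 29 CpG at a GC content of 61.3%, and the HOXA13 stretch 22 CpG at 67%. A further pair of HOXA peaks lay inside the record of HOXA9, and the second also in an intron of HOXA10, genes known for their part in blood progenitors and leukemia. The first, at chr7:27209566-27209771, had its summit 497 bp before MIR196B, the gene of the microRNA miR-196b (fold 5.15, 21 fragments). The second, at chr7:27212588-27212847, had its summit 171 bp before the start of a HOXA10 transcript (fold 5.92, 24 fragments).

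In the HOXD cluster the DDX23-/- list had 3 peaks. The HOXD13 peak, chr2:176957346-176957643, had the highest fold of any HOX peak but HOXB8's in that list, 10.9 on 44 fragments, with its summit 25 bp past the start in the 5′ UTR. The HOXD8 peak, chr2:176994249-176994461, had its summit 92 bp before the start of HOXD8, a paralog of HOXB8, in an intron of the antisense gene HOXD-AS2 (fold 6.01, 21 fragments). The peak at chr2:176971962-176972244 had its summit in the 5′ UTR of HOXD11, 69 bp past its canonical start (fold 6.27, 27 fragments). It lay 1274 bp from the gene start of HOXD10 and 3018 bp from that of HOXD11, so neither was counted by gene start. The stretches before the starts of HOXD13 (chr2:176957346-176957448) and HOXD8 (chr2:176994249-176994421) are printed 5′ to 3′ on the plus strand, again with CpG in capitals.
HOXD13: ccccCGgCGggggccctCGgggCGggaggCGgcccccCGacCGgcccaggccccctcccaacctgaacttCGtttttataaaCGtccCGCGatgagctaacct
HOXD8: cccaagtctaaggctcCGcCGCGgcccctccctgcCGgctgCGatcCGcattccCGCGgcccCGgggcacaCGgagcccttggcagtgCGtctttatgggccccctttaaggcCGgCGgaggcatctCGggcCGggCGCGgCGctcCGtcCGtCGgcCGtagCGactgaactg
Their GC contents were 70.9% and 72.8%. HOXB8 and HOXD8 are thus paralogs with a peak at the start whose sequences there differ widely in composition.

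In the HOXC cluster both DDX23-/- peaks were at HOXC9, a gene of the trunk. Their summits lay 91 bp before the gene start (fold 6.13, 26 fragments) and 744 bp past it (fold 4.23, 20 fragments). The canonical start of HOXC9 was 4451 bp from the nearest peak. The HOXB cluster had 2 DDX23-/- peaks away from HOXB8. One held the canonical start of HOXB3, a gene of the hindbrain, 14671 bp inside its gene record (fold 6.01, 29 fragments). The other, with the lowest fold of the 15, 3.79 on 33 fragments, had its summit 294 bp before the noncoding gene LINC02086 and in an exon of LINC03057. Of 43 annotated genes in the 4 clusters that are no members, 4 had a DDX23-/- peak within 1 kb of the start, among them MIR196B, LINC02086 and LINC03057. None had a WT or POLK-/- peak there. The share over all annotated genes was not computed, so these counts cannot be called high or low.

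By paralog group, groups 6, 8, 9 and 13 were among those with a member that had a peak. Group 13 had 3 of 4 (HOXA13 and HOXD13 in the DDX23-/- list and HOXB13 in the POLK-/- list), and group 8 had 2 of 3 (HOXB8 and HOXD8). The HOXB13 peak was not kept at a q of 1e-05 or less. These counts pool the 3 lists, in which 31 of 39 HOX genes and 74.6% of all protein-coding genes had no peak. The groups hold 2 to 4 genes each, and no difference between them was tested. No gene of groups 2 to 5, 7 and 10 to 12 had one at its gene start. The members just inside the limit of 1 kb were HOXA6 at 288 bp and HOXA13 at 231 bp, and those just outside it were HOXD10 at 1274 bp, HOXA3 at 1384 bp and HOXA9 at 1952 bp.

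The choice of start moved the count. For 12 HOX genes the gene start and the canonical start lie more than 1 kb apart, by up to 37816 bp in HOXC6. With canonical starts the WT, POLK-/- and DDX23-/- lists had 1, 3 and 8 HOX genes, beside 5.86%, 10.5% and 26.2% of all genes. In the DDX23-/- list HOXA6 and HOXC9 dropped out, and HOXB3, HOXB7 and HOXD11 came in. With any annotated transcript start they had 1, 3 and 13 (2.56%, 7.69% and 33.3%), beside 6.49%, 11.4% and 28.3%. The 13 genes of the DDX23-/- list added HOXA9, HOXA10, HOXB3, HOXB7, HOXC6 and HOXD11 to the 7 counted by gene start. The DDX23-/- share was therefore below that of all genes by gene start and above it by any transcript start, and in both cases the interval (19.1 to 50.2 for the latter) contained the share of all genes.

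Apart from the HOXB8 start peak, most HOX peaks had a fold below the median of the peaks near protein-coding starts in their list. In the DDX23-/- list HOXD13, HOXA6, HOXA13 and the further HOXB8 peaks lay above it. The medians given next include the HOXB8 peaks. The median fold of the 15 DDX23-/- HOX peaks was 6.13, beside 7.32 for the 4327 peaks of that list within 1 kb of a protein-coding start. It was 7.85 for the 8 peaks within 1 kb of a member start and 6.01 for the 7 elsewhere in the clusters. The 4 POLK-/- HOX peaks had a median of 5.96, beside 6.94 for 1677 peaks near starts. The plot of folds shows HOXB8 above the middle range of its list in each case, and the other HOX peaks within it or below it save HOXD13 in the DDX23-/- list, just above it.

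**Figure D4:**
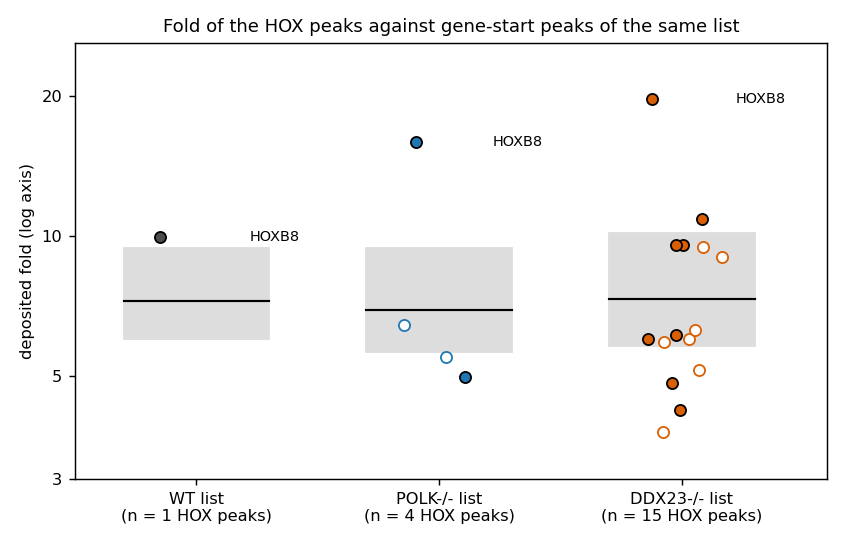
Deposited fold (log axis) of each HOX peak in the WT, POLK-/- and DDX23-/- lists. Filled circles are peaks within 1 kb of a member start and open circles other peaks in the clusters, grey boxes are the quartiles of all peaks within 1 kb of a protein-coding start and black lines their medians (7.23, 6.94 and 7.32). HOXB8, at 9.93, 15.9 and 19.7, is the highest HOX peak of each list.

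Of the 15 DDX23-/- HOX peaks 1 (6.67%) overlapped a WT peak, beside 22.6% over the whole DDX23-/- list, and 3 (20%) overlapped a POLK-/- peak, beside 38.1%. Of the 4 POLK-/- HOX peaks 3 (75%) overlapped a DDX23-/- peak, beside 92.4% over the list. The WT peak overlapped both other lists. The 14 DDX23-/- HOX peaks with no WT peak rested on 17 to 48 fragments, with a median of 28. Scaled to WT depth they came to 4.31 to 12.2 fragments, with a median of 7.10. Of these, 4 fell under 6, the fewest fragments recovered for any WT peak, and 10 did not. The number needed for a peak rises with the local background, so 6 is no limit for each of them. Whether depth accounts for the peaks missing from the WT list was not tested. With the 1468 peaks of smallest p taken from each list, HOXB8 was the only HOX gene with a peak in any of them, beside 5.61%, 5.80% and 5.73% of all starts. HOXD13 came next, at number 1524 of the DDX23-/- list.

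HOX gene starts had nearly the same median GC and CpG content as all gene starts, and few of them were CpG-poor. All values here are for gene starts, and for 12 HOX genes these lie more than 1 kb from the canonical start. Composition at canonical starts was not computed. In windows of 500 bp on either side of the start, median GC content was 59.6% for HOX genes and 59.1% for all protein-coding genes, the median number of CpG was 58 in both, and the median ratio of observed to expected CpG was 0.695 and 0.686. The lower quartile was higher for HOX genes, with 56.0% GC against 51.4%, 45 CpG against 22, and a CpG ratio of 0.579 against 0.325. No test was made of these values. HOXD starts had the highest median GC content of the 4 clusters, 62.6%. The 7 HOX genes with a DDX23-/- peak had a median GC content of 63.4% and a CpG ratio of 0.841, and the 32 without one 59.3% and 0.666. Values ran from 45.8% in HOXB8 to 75.4% in HOXA13, both of which had a peak. HOXB8 had the lowest GC content of the 39 but a CpG ratio of 0.866. With all protein-coding starts cut into 4 equal groups by GC content, the lowest group is the one to which HOXB8 belongs, and 1.16% of that group had a WT peak, 2.73% a POLK-/- peak and 6.39% a DDX23-/- peak. The HOXB8 peak itself had a GC content of 51.2%, 48.4% and 48.5% in the 3 lists, and 3.55%, 1.37% and 0.693% of the peaks near protein-coding starts had a lower one.

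Across all starts the share with a peak was higher where CpG was frequent. In 4 equal groups ordered by the CpG ratio it was 0.811%, 19.8%, 41.2% and 37.8% in the DDX23-/- list, so that a CpG-poor start rarely had a peak. The HOX starts fell 1, 18, 11 and 9 into these groups, and 0, 1, 2 and 4 of them had a DDX23-/- peak. At the shares of all starts in the same groups the HOX genes would have counted 2.54, 4.63 and 11.5 in the WT, POLK-/- and DDX23-/- lists, against 1, 2 and 7 found. With groups by GC content the numbers were 2.50, 4.53 and 11.0. By gene start the HOX counts were lower in each list, and the gap in the DDX23-/- list lay in the second and the third group, with 1 of 18 and 2 of 11. The plot by CpG group shows this. No test was made of the difference, since neighboring genes of a cluster are not independent. The groups were not made for other starts. Without groups, the DDX23-/- share by any transcript start was 33.3% for HOX genes beside 28.3% of all genes. Within 5 kb of the gene start it was 33.3% beside 27.5%, so the direction depends on the start and distance used.

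**Figure D5:**
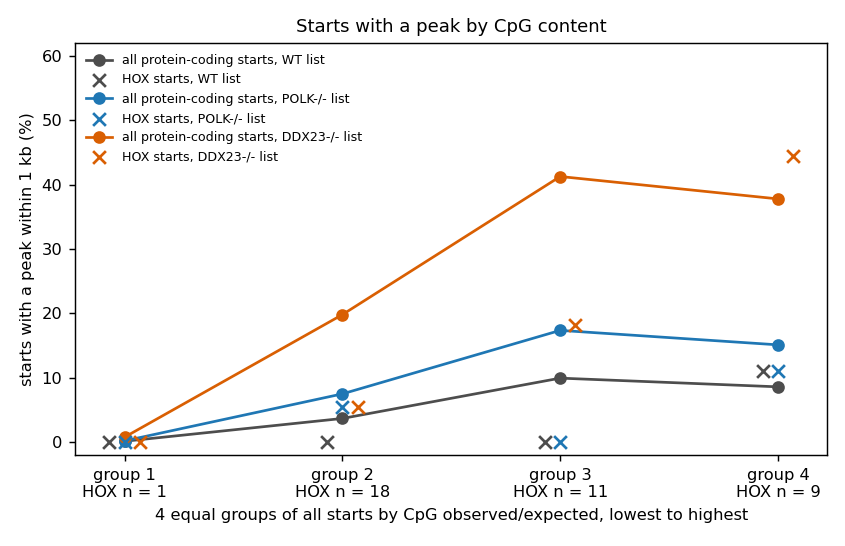
Share of gene starts with a peak within 1 kb, in percent, in 4 equal groups of all protein-coding starts ordered by the ratio of observed to expected CpG. Circles joined by lines are all starts and crosses HOX starts in the WT (grey), POLK-/- (blue) and DDX23-/- (orange) lists. In the DDX23-/- list 1 of 18 HOX starts had a peak in the second group and 4 of 9 in the fourth, where all starts had 19.8% and 37.8%.

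Short sequence features were present in HOX gene starts at other shares than over all gene starts, and no test was made of these shares. For 12 HOX genes the gene start lies more than 1 kb from the canonical one, so the window there does not cover the canonical start. In windows of 300 bp centered on the start, searched on both strands, a CT repeat (CTCTCTCT) was present in 9 of 39 HOX genes (23.1%) and in 3.30% of all protein-coding genes. CCAAT was present in 28 (71.8%) against 33.7%, GGGCGG, the GC box, in 15 (38.5%) against 54.0%, and TATAAA in 6 (15.4%) against 9.21%. Of the 8 HOX genes with a peak in any list, 3 held the CT repeat (HOXB8, HOXB13 and HOXC9), 8 CCAAT and 5 the GC box. HOXC8, a paralog of HOXB8, held the CT repeat at 21 places, overlapping ones included, and its longest run of pyrimidines or purines was 50 bases, as in HOXB8, but it had no peak in any list. The B box of RNA polymerase III promoters was in no HOX start or HOX peak, and in 11.0% of all WT peaks and 3.06% of all DDX23-/- peaks in windows of that length around the summit. TGATTNAT, a site that PBX and HOX proteins can bind together, was in 2 HOX starts (HOXA2 and HOXC4), neither with a peak at the gene start, and in 1.70% of all starts. Around the summits it was in 1 of 15 DDX23-/- HOX peaks, the one at the canonical start of HOXD11, and in 1.04% of all peaks of the list. In windows of the same length around the summits the CT repeat was in 3 of 15 DDX23-/- HOX peaks (20%) against 3.13% of all peaks of the list, and these were the HOXB8 start, the HOXB8 3′ UTR and HOXC9. The GC box was in 9 (60%) against 70.8%. A match is a string of letters and not a measured site.

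With the nearest peak per gene start, the summits of the DDX23-/- list lay before the start in 5 of 7 HOX genes, at a median of 92 bp upstream. Over all starts with a peak this was 46.1%, with a median of 10 bp past the start. For HOXA6 and HOXC9, both among the 5, the gene start lies 2829 and 5266 bp from the canonical one. The second HOXC9 peak, past the start, was not counted. The difference was not tested. In HOXA13 the upstream summit was closer to the noncoding RNA start of HOTTIP, 10 bp past it.

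The same counts were made for genes that work with HOX genes or act on them, for other homeobox genes and for genes flanking the clusters. TALE proteins (PBX, MEIS and PKNOX) bind DNA together with HOX proteins, and 0, 2 and 3 of their 9 genes had a peak in the WT, POLK-/- and DDX23-/- lists. The intervals of these shares (0 to 33.6, 2.81 to 60.0 and 7.49 to 70.1) contained the 5.61%, 10.1% and 24.9% of all starts. PKNOX2 had one in both knockout lists (fold 6.96 and 8.52), PBX2 (6.95) and MEIS2 (6.51) in the DDX23-/- list, and MEIS1 (4.72) in the POLK-/- list. Of 108 other homeobox genes 5, 13 and 30 had one, and the intervals of these shares contained the shares of all starts. POU3F2, a neural POU factor, had folds of 11.2, 15.5 and 27.4, and TGIF2, DLX1, MSX1 and ISL1 also had a peak in all 3 lists. Of 12 genes flanking the clusters 0, 0 and 4 had one, CBX5, SMUG1, MTX2 and LNPK, and the interval in the DDX23-/- list (9.92 to 65.1) contained the 24.9% of all starts, as those of the other lists contained theirs. Of 33 Polycomb genes 4, 4 and 12 (12.1%, 12.1% and 36.4%) had one, among them BMI1 with folds of 8.90, 7.86 and 12.9, EZH1, MTF2, RING1 and SUZ12. Their intervals (3.40 to 28.2, 3.40 to 28.2 and 20.4 to 54.9) also contained the shares of all starts. Of 24 Trithorax and COMPASS genes 5 (20.8%), 11 (45.8%) and 16 (66.7%) had one, with intervals of 7.13 to 42.2, 25.6 to 67.2 and 44.7 to 84.4 that lay above the share of all starts in each list. Among them were the histone methyltransferase gene SETD1B, with folds of 11.5, 8.43 and 22.3, and ASH2L, PAXIP1, WDR5 and NCOA6. These gene lists were chosen with results of these data known, and their shares were not set against starts of like CpG content. Their difference from all starts or from the HOX genes was not tested.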

How the data were processed

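The 3 lists used come from 16 samples, 12 of them in libraries labelled R_, and the deposit ties each to replicate 1 of its genotype. Peak names of the WT and DDX23-/- lists carry another replicate number, so the library behind them is uncertain. The authors deposited for each peak a start, an end, a summit, a fold (ratio), the −log10 of p and of q, and a score. The submitters' processing notes name Bowtie2, MACS2, bedtools, deepTools and hg19. The control, threshold and any pooling are not given in the sources used here. The lists' weakest −log10 p was 5.28, 4.70 and 4.48. Fragments and backgrounds were recovered by solving the peak caller's formulas (1454 of 1468, 2376 of 2451 and 5840 of 5945 peaks, and all HOX peaks). This was checked only on values rebuilt with the same formulas from the recovered numbers. Relative depth was the lowest common background over the shortest peak width, which takes that width as the fragment length. That assumption was not tested.

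Distances run from the nearest base of a peak to the start, and peaks overlapping by at least 1 bp were called shared. Intervals are exact binomial (Clopper-Pearson) or exact Poisson at 95%. GRCh37 sequence and GENCODE 44 were used with Python 3.11.15, pandas 2.3.3, scipy 1.17.1 and pysam 0.24.0. With 1 list per genotype no test between genotypes was made. The alternatives were a q of 1e-05 or less, equal numbers of peaks, 5 kb, summit distance, other starts, clusters widened by 10 kb, and a reciprocal overlap of 50% or summits within 500 bp. The genes named are all members, genes nearest a HOX peak, and up to 5 of each related list, by number of lists and then fold in DDX23-/-. One member is counted in all totals but not reported on its own here. Members, lists and motifs were chosen with earlier results of these data known.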

Additional observations from a re-analysis of the deposited data

How the results depend on the processing

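Of 69 alternative values for 18 results, 58 stayed within 1.5 times the count or within the spread of the folds and 11 moved. With equal numbers of peaks per list, the POLK-/- and DDX23-/- lists each had 1 HOX gene with a peak (2 and 7 in full) and 1 peak in the clusters (4 and 14 in full), and of the 3 HOX peaks that these lists shared 1 remained from either side. All protein-coding genes with a peak then numbered 1169 and 1155 (2028 and 5018 in full). A q of 1e-05 or less left 1 HOX gene for POLK-/- and 6 for DDX23-/-. Within 5 kb, and likewise with any transcript start, 13 HOX genes had a DDX23-/- peak. At 5 kb this was 33.3% beside 27.5% of all genes, and with any transcript start it was 33.3% beside 28.3%, so in both the HOX share stood above that of all genes instead of below it. The WT results did not move under any of these, but those on HOX genes rest on 1 peak. The WT list is also the shortest, so equal numbers left it whole. The limit for folds was wide. The POLK-/- median of 5.96 became 10.4 with peaks near member starts only and was not counted as moved. No paired analysis was possible because each genotype has 1 list and no result comes from a test. The weakest peaks rest on 6, 10 and 14 fragments in the WT, POLK-/- and DDX23-/- lists. The scaling to WT depth, the composition groups and the motif searches were chosen after seeing the data.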
